A study of Canis lupus familiaris with 15 samples.

Results

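Luteal regression in the non-pregnant dog was compared with prepartum luteolysis in the pregnant dog, by the messenger RNA of the corpus luteum (CL). The members are the 2 libraries labelled luteal regression and the 3 labelled luteolysis, taken by their condition label from the count table, 5 of the 15 libraries in the series. For luteal regression, the study's text names more sequenced dogs than the 2 in this table. Genes were tested where the count averaged 10 or more in either group, which were 14768 of the 23630 genes in the table. The series measured CL RNA by RNA-Seq in clinically healthy cross-breed bitches aged 2 to 8 years, with 1 library per dog. The luteal regression dogs, Lissy and Mara, were not pregnant and untreated, and their CL were collected 65 days after ovulation. The luteolysis dogs, Amy, Kimba and Senta, were pregnant and untreated. They were operated on after the prepartum fall of progesterone (P4), which was followed in blood at 6 h steps from day 58 and had to stay under a limit of 2 to 3 ng/ml in 3 samples. The 5 mid-gestation dogs (pregnant, days 35 to 40 after ovulation, untreated) and the 5 antigestagen dogs (days 40 to 45, aglepristone at 10 mg/kg given 2 times 24 h apart, tissue 24 h after the last dose) gave the fit its estimate of the spread and are otherwise described only for a few genes. The record of the mid-gestation dog Nescafe gives different group numbers in its title and its description, and the dog was placed by its condition label. In all dogs the CL came from ovariohysterectomy and was trimmed of surrounding ovary.

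Dogs depend on their CL for P4 whether or not they carry pups, and the uterus of a dog that is not pregnant does not end luteal function. In non-pregnant dogs the CL regresses slowly and P4 falls over weeks, whereas in pregnant dogs P4 drops steeply shortly before birth, together with a prepartum release of prostaglandin F2alpha. The steroidogenic cells of the CL lie among many capillaries, fibroblasts and immune cells, so a piece of CL tissue holds RNA of all of them.

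The total count was 15236939 in Amy, 23505897 in Kimba and 17915491 in Senta, and 16648029 in Lissy and 16523232 in Mara. The 2 luteal regression libraries were the most alike of all pairs, with Spearman's rho of 0.983 across the genes tested (genes are not independent replicates) and 5.85% of genes more than 2-fold apart. Kimba and Senta followed, with rho of 0.976 and 9.36% of genes more than 2-fold apart. Amy stood apart from the other luteolysis dogs. Between Amy and Kimba rho was 0.91 with 28.6% of genes over 2-fold apart, and between Amy and Senta 0.927 with 22.9%. Against luteal regression, rho of Amy was 0.932 with 25.4% of genes over 2-fold apart for Lissy and 0.942 with 21.4% for Mara. For Kimba the values were 0.942 with 17% for Lissy and 0.934 with 18.5% for Mara. Senta had 0.918 with 26% and 0.917 with 24.5%. Amy was thus apart from the dogs of its own group, but by the share of genes over 2-fold apart not nearer to luteal regression than Kimba was. The 10 genes with most reads took 20.2% of the counts in Amy, 10.7% in Kimba, 14% in Senta, 9.93% in Lissy and 11.9% in Mara. Counts that changed strongly, and calls on genes named below that changed, without Amy or without Kimba are therefore given. Of the 10 luteal cell markers chosen, only CYP17A1 and PRLR have a name here, and both were read in every library (described below), whereas STAR, CYP11A1 and HSD3B2 were not analysed here. How far each library holds luteal cells was therefore not checked further.

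Luteal regression over luteolysis gave 754 differentially expressed genes (DEG; p below 0.01 and Benjamini-Hochberg adjusted p below 0.1 in edgeR's quasi-likelihood test), which is 5.11% of the genes tested. The larger share was lower in luteal regression, with 529 genes (3.58%), and 225 genes (1.52%) were higher. The DEG that were lower in luteal regression included subunits of the proton pump of lysosomes, the actin machinery, chemokines, complement inhibitors and MHC class II genes. The DEG that were higher included clock genes, matrix proteins and interferon-stimulated genes. The median log2 ratio was -0.05 over all genes tested. At least 4-fold differences were found for 179 of the lower and 43 of the higher DEG. The dogs of both groups did not overlap in level (CPM, counts scaled to library size) for 700 of the 754 DEG, and such separation was seen in 38.1% of all genes tested. The 54 overlapping DEG were all among the lower ones, and in 53 of them it was Amy whose level was at or below the higher of the luteal regression dogs. With upper-quartile scaling, which moved the median of all genes tested by 0.10, the split was 291 higher and 387 lower, or 42.9% higher against 29.8%. Among the 529 lower DEG, Amy was the lowest luteolysis dog in 371 (70.1%), Kimba in 146 (27.6%) and Senta in 12 (2.27%), against 41.8%, 32.6% and 25.6% of all genes tested. Among the 225 higher DEG, the highest luteolysis dog was Kimba in 141 (62.7%), Amy in 68 (30.2%) and Senta in 16 (7.11%), against 35.9%, 39.1% and 25% of all genes tested. The dog nearest to luteal regression was thus most often Amy in the lower and Kimba in the higher DEG.

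**Figure D1:**
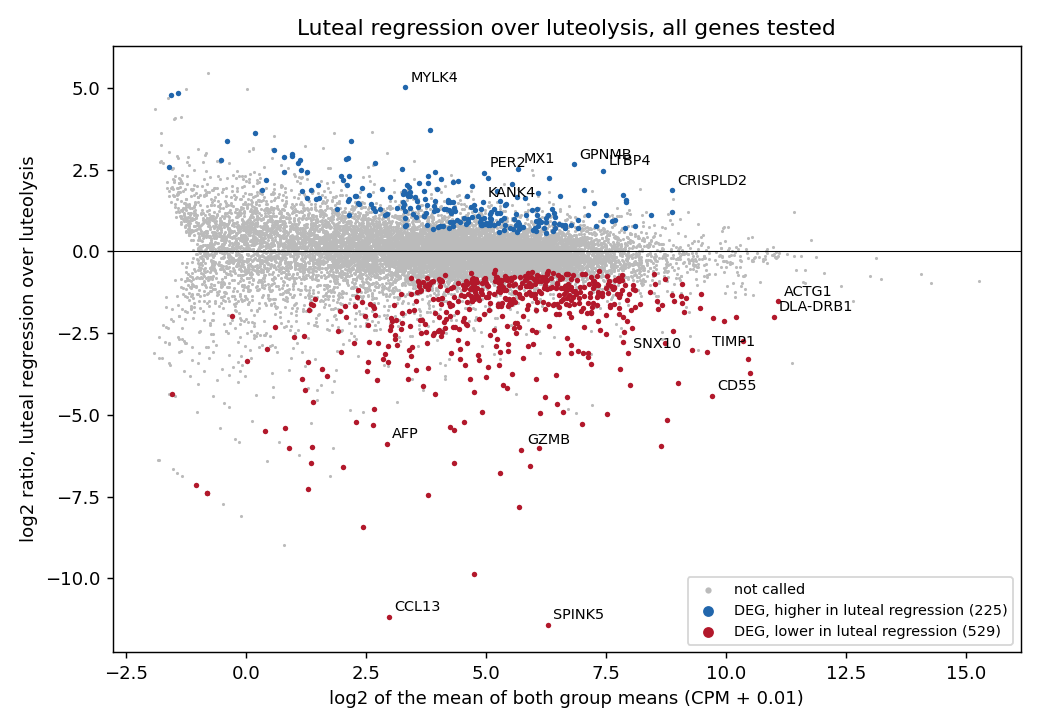
Log2 ratio of luteal regression over luteolysis (vertical axis) against the log2 mean level of both groups in CPM (horizontal axis) for the 14768 genes tested, with the 225 higher DEG in blue, the 529 lower DEG in red and all others in grey. The lower DEG reach further from 0 than the higher ones, to -11.42 against 5.02.

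The number of DEG depended on which dogs were in the fit. It was 1593 without Amy and 1035 without Kimba, but 5 without Senta, 0 without Lissy and 1 without Mara. With only the 5 dogs of the 2 groups in the fit, edgeR called 0 genes, the smallest adjusted p was 0.225, and 2360 genes had an unadjusted p below 0.05. Without Lissy 1416 genes had an unadjusted p below 0.05 in edgeR's test, without Mara 1623 and without Senta 1677, against 2770 with all dogs. The 5 genes still called without Senta were SNX10, LAP3, TCIRG1 and ZPR1, all lower, and KANK4, which was higher. The call left without Mara was TLN2, a cytoskeletal linker at cell adhesions, with a log2 ratio of 2.22, and it is named here because it was chosen after its values were seen. None of the 754 DEG turned its direction in any fit with 1 dog left out. This is no independent support, since the DEG were selected for their difference in these same dogs. In 700 of them the groups did not overlap, so a turn was hardly possible. Except for SNX10, TCIRG1, LAP3, ZPR1 and KANK4, each call on a named gene below, and each count of called genes in a list, was therefore lost without Senta, and all were lost without Lissy or without Mara.

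**Figure D2:**
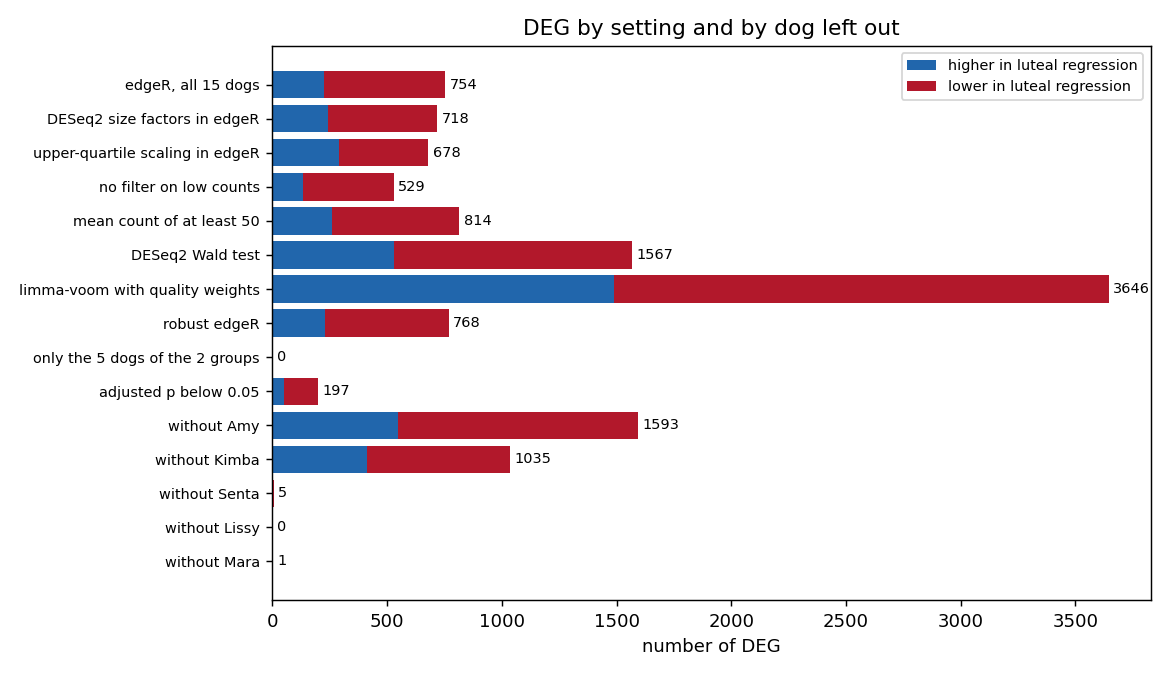
Number of DEG (horizontal axis) with all dogs under each setting and with each of the 5 dogs left out, split into genes higher (blue) and lower (red) in luteal regression. The count was 754 as reported, 1593 without Amy, and between 0 and 5 without Senta, Lissy or Mara.

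Names were at hand for 2954 of the genes tested. These are genes that the study listed as changed in at least 1 of its contrasts of these same libraries, and 23.3% of them were DEG here (7.18% higher, 16.1% lower) and their median log2 ratio was -0.34. A count within a list below is therefore not independent evidence of a direction, and is to be read against these shares.

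Most genes tested of the vacuolar ATPase, the pump that acidifies lysosomes and endosomes, were lower in luteal regression, and in these Amy too was above both luteal regression dogs. The gene of smallest p in the whole table was SNX10, a sorting nexin that binds this pump. SNX10 was read at 215 CPM in Amy, 522 in Kimba and 594 in Senta, and at 56.2 in Lissy and 46.4 in Mara. Both luteal regression dogs were below every luteolysis dog. Its log2 ratio came to -3.11 ± 0.39 (SE), with an adjusted p of 0.0106 in edgeR's test. TCIRG1, a membrane subunit of the pump, was the steadiest of the group. In luteal regression the level of TCIRG1 was 23.9 CPM in Lissy and 25.2 in Mara, against 76.7 in Amy, 76.5 in Kimba and 64.5 in Senta. EdgeR gave TCIRG1 a log2 ratio of -1.56 ± 0.23 and an adjusted p of 0.0261. ATP6V0B, a proteolipid subunit, stood at 433, 236 and 374 CPM in Amy, Kimba and Senta and at 87.9 and 95.9 CPM in Lissy and Mara, so that Amy was here the highest of the luteolysis dogs. ATP6V0B had a log2 ratio of -1.92 ± 0.40 and an adjusted p of 0.0469 in edgeR's test. ATP6V1C1, of the cytosolic half-complex, had log2 ratio -1.11 ± 0.26 (SE). In all, 6 of 9 tested members (24 chosen) were lower and 0 higher, with a median of -1.29. The 1 member with a positive log2 ratio was ATP6V0A4, another subunit, at 1.34, which edgeR did not call and which is named after its values were seen. DESeq2's Wald test and limma-voom each called 1 member higher. Without Amy 6 were called, without Senta 2 (SNX10 and TCIRG1), and without Lissy or Mara 0. Summed over the 9 members, the level was 1265 CPM in Amy, 1389 in Kimba and 1694 in Senta against 463 in Lissy and 466 in Mara. The counts, the median and the sum include SNX10, the member with most reads, which is not a subunit of the pump. Of 12 tested lysosomal hydrolases and membrane proteins, 1 was higher and 0 were lower, with a median of 0.20. So few calls are to be read against the shares of all tested genes with a name (7.18% higher, 16.1% lower). The difference from the pump list was not tested. The higher one was GPNMB, a glycoprotein of melanosomes and lysosomes. GPNMB had 319 CPM in Lissy and 75.0 in Mara, against 18.8 in Amy, 21.9 in Kimba and 52.0 in Senta. Lissy was far above all other dogs for this gene, and its log2 ratio was 2.67 ± 0.58 (edgeR's adjusted p = 0.0473). PSAP, the saposin precursor and the member with most reads, had log2 ratio 0.19 ± 0.29, and the protease CTSB -1 ± 0.31, neither a DEG. Without Amy 6 lysosomal genes were called, 5 of them higher, and without Kimba 1 was higher and 1 lower. DESeq2's Wald test called 1 higher and 2 lower, and limma-voom 4 higher and 2 lower. Single dogs moved some of these values. GPNMB had a log2 ratio of 3.32 without Senta, 1.28 without Lissy and 3.36 without Mara. CTSB was a DEG without Amy (log2 ratio -0.98, edgeR's adjusted p = 0.0846).

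Many genes of actin and its regulators were lower in luteal regression too. Of 24 tested members (36 chosen), 16 were lower in luteal regression and 0 higher, and the log2 ratio was negative for all 24, with a median of -1.34. CAPG caps the growing ends of actin filaments. CAPG was read at 46.6 CPM in Amy, 212 in Kimba and 233 in Senta, and at 13.0 in Lissy and 11 in Mara. Amy lay between the other luteolysis dogs and the luteal regression dogs. EdgeR gave CAPG a log2 ratio of -3.77 ± 0.64 and an adjusted p of 0.0367. ARPC1B and ARPC5 are subunits of the Arp2/3 complex, which starts branched filaments. In luteal regression the level of ARPC1B was 44.6 CPM in Lissy and 42.8 in Mara, against 104 in Amy, 125 in Kimba and 174 in Senta. The groups did not overlap, with Lissy and Mara below the other 3 dogs. Its log2 ratio was -1.62 ± 0.28 (edgeR's adjusted p = 0.0367). ARPC5 had log2 ratio -1.26 ± 0.23. ACTG1, one of the 2 cytoplasmic actins and the member with most reads, stood at 1871, 3287 and 4588 CPM in Amy, Kimba and Senta and at 1141 and 1108 CPM in Lissy and Mara. In edgeR's test the log2 ratio of ACTG1 was -1.53 ± 0.36 (adjusted p = 0.05). TAGLN2, an actin-binding protein, had log2 ratio -1.69 ± 0.32. The summed level of the 24 members was 4514 CPM in Amy, 7574 in Kimba and 9757 in Senta against 2810 in Lissy and 2832 in Mara, and 20 members were called without Amy.

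Other lower genes of small p came from several cell functions. LAP3 is a cytosolic aminopeptidase. LAP3 was read at 259 CPM in Amy, 275 in Kimba and 352 in Senta, and at 89.6 in Lissy and 91.1 in Mara. Lissy and Mara were both below all luteolysis dogs. This made a log2 ratio of -1.71 ± 0.24, with an adjusted p of 0.0211 by edgeR. ZPR1, a zinc finger protein, stood at 129, 195 and 324 CPM in Amy, Kimba and Senta and at 55.4 and 60.2 CPM in Lissy and Mara, and its log2 ratio was -1.90 ± 0.29 (edgeR's adjusted p = 0.0261). CD82, a tetraspanin of the cell surface, stood at 153, 235 and 286 CPM in Amy, Kimba and Senta and at 74.0 and 65.6 CPM in Lissy and Mara. EdgeR gave CD82 a log2 ratio of -1.69 ± 0.29 and an adjusted p of 0.0367. For FAM167B and SPRYD3 the log2 ratio was -3.11 ± 0.53 and -1.24 ± 0.22, and the groups did not overlap in either. The largest differences were seen in genes nearly silent in luteal regression. SPINK5 encodes an inhibitor of serine proteases. SPINK5 had 0 CPM in Lissy and 0.103 in Mara, against 458 in Amy, 7.79 in Kimba and 3.65 in Senta. The mean level in luteolysis was thus set mainly by Amy. With 2 reads in the luteal regression libraries together, the ratio of summed counts was 2270-fold lower, with a 95% counting interval of 629 to 18800 that does not cover the spread between dogs. The log2 ratio of SPINK5 was -11.42 with all dogs and -6.62 without Amy (edgeR's adjusted p = 0.0491 and 0.0362). It was -10.48 without Lissy, and without Mara no read of SPINK5 is left in luteal regression. AREG, a ligand of the EGF receptor, went the other way among the luteolysis dogs. AREG was read at 2.25 CPM in Amy, 26.4 in Kimba and 89.0 in Senta, and at 0.685 in Lissy and 1.08 in Mara. Its highest level was in Senta, and its log2 ratio was -5.47 ± 1.38 (edgeR's adjusted p = 0.0634). SERPINB10, a serine protease inhibitor, stood at 0.526, 16.7 and 19.4 CPM in Amy, Kimba and Senta and at 0.391 and 0.205 CPM in Lissy and Mara, with Amy next to the luteal regression dogs. AREG had a log2 ratio of -3.97 without Senta.

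**Figure D3:**
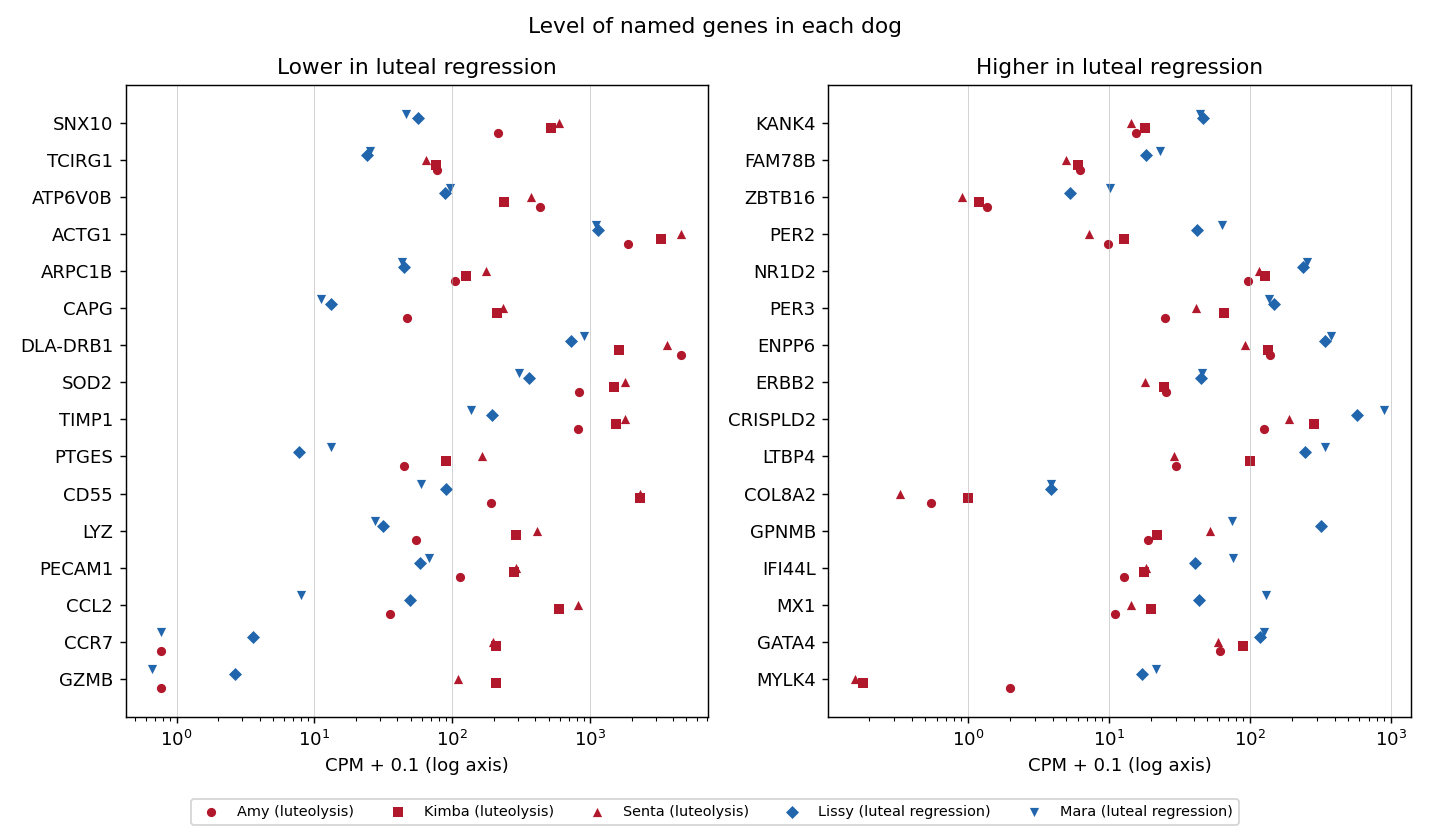
CPM + 0.1 (log axis) of 32 named genes in the 3 luteolysis dogs (red) and the 2 luteal regression dogs (blue), 16 genes lower on the left and 16 higher on the right. For CCL2, CCR7 and GZMB Amy lies between the luteal regression dogs, and in the other genes shown the groups are apart.

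Among the higher genes, the smallest p was that of KANK4, a cytoskeletal adaptor protein. KANK4 was read at 15.4 CPM in Amy, 18.1 in Kimba and 14.3 in Senta, and at 46.2 in Lissy and 43.9 in Mara. Luteal regression was at the level of mid-gestation for this gene, where the 5 dogs ranged from 37.4 to 47.8 CPM. For KANK4 edgeR's log2 ratio was 1.5 ± 0.23 and its adjusted p 0.0261. FAM78B stood at 6.16, 5.97 and 4.87 CPM in Amy, Kimba and Senta and at 18.2 and 22.8 CPM in Lissy and Mara. Both luteal regression dogs were above every luteolysis dog. EdgeR gave FAM78B a log2 ratio of 1.86 ± 0.29 and an adjusted p of 0.0327. ENPP6, a choline-releasing phosphodiesterase, stood at 139.8, 134 and 92.0 CPM in Amy, Kimba and Senta and at 342 and 375 CPM in Lissy and Mara. Its log2 ratio came to 1.56 ± 0.31 (SE), with an adjusted p of 0.0451 in edgeR's test. The receptor tyrosine kinase ERBB2 had log2 ratio 1.01 ± 0.19 and LRIG3, of a family of receptor tyrosine kinase regulators, 1.14 ± 0.22 (both SE), and the groups did not overlap in either gene. MYLK4, a kinase of the myosin light chain kinase family, had the largest log2 ratio of the higher named genes. In luteal regression the level of MYLK4 was 17.2 CPM in Lissy and 21.4 in Mara, against 1.88 in Amy, 0.0791 in Kimba and 0.0580 in Senta. Both luteal regression dogs lay inside the mid-gestation range of 4.57 to 48.6 CPM. Its log2 ratio was 5.02 ± 1.25 (edgeR's adjusted p = 0.0607). CYP2C21, a canine cytochrome P450 of drug and fatty acid metabolism, stood at 2.85, 1.86 and 1.39 CPM in Amy, Kimba and Senta and at 15.5 and 37.5 CPM in Lissy and Mara. CYP2C21 had a log2 ratio of 3.71 ± 1.05 and an adjusted p of 0.0846 in edgeR's test. ENGASE, an enzyme that removes sugar chains, stood at 4.73, 6.09 and 3.25 CPM in Amy, Kimba and Senta and at 34.5 and 11.4 CPM in Lissy and Mara, so that Lissy set much of its log2 ratio of 2.29. FIGNL1, APBA2 and SIDT1 were also higher, with log2 ratios of 1.40, 3.11 and 2.69. Some of these results changed with a single dog left out. MYLK4 had a log2 ratio of 8.00 without Amy and 4.38 without Kimba. CYP2C21 was not a DEG without Kimba (log2 ratio 3.65, edgeR's adjusted p = 0.124). CYP2C21 had a log2 ratio of 2.94 without Mara. Further genes depended on single dogs as well. ENGASE had a log2 ratio of 1.27 without Lissy. SIDT1 had a log2 ratio of 3.55 without Kimba.

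For most DEG mid-gestation lay between the groups, and more often nearer to luteal regression than to luteolysis. On the scale of log2(CPM + 1), the mid-gestation mean was nearer to luteal regression for 341 of the 529 lower DEG (64.5%) and for 143 of the 225 higher DEG (63.6%), against 7015 of all 14768 genes tested (47.5%). The antigestagen mean was nearer to luteal regression for 282 lower DEG (53.3%) and 109 higher DEG (48.4%), against 44.1% of all genes tested. The mid-gestation mean lay between the groups for 88.7% of lower and 92% of higher DEG, and the antigestagen mean for 89% and 92%. Of all genes tested, 40.4% and 39.3% did so. The DEG were selected for a gap between these groups, so all genes tested are not a like baseline. These counts describe levels and were not tested.

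The few genes of the steroid synthesis list that have a name gave no single direction. STAR, CYP11A1 and HSD3B2 were not analysed here, so the synthesis of P4 itself was not assessed. Of 7 tested enzymes (30 chosen), 3 were lower and 1 was higher, and the median log2 ratio of -0.40 turned to 0.25 without Amy. HSD3B7, an enzyme of bile acid synthesis from cholesterol, stood at 95.7, 98.2 and 161 CPM in Amy, Kimba and Senta and at 38.1 and 39.9 CPM in Lissy and Mara. In edgeR's test the log2 ratio of HSD3B7 was -1.60 ± 0.28 (adjusted p = 0.0367). HSD17B12, which acts on steroids and long-chain fatty acids, stood at 476, 247 and 361 CPM in Amy, Kimba and Senta and at 133 and 159 CPM in Lissy and Mara. EdgeR gave HSD17B12 a log2 ratio of -1.31 ± 0.37 and an adjusted p of 0.0873. CYP27B1, the enzyme that activates vitamin D, was near 0 in Amy. CYP27B1 had 0.782 CPM in Lissy and 0.821 in Mara, against 0.375 in Amy, 24.1 in Kimba and 12.9 in Senta. It overlapped between the groups through Amy, and its log2 ratio was -3.95 ± 1.06 with all dogs and -4.48 without Amy. SULT1E1, which inactivates estrogens by sulfation, was the higher one, at 1.17 CPM in Lissy and 1.28 in Mara and at most 0.395 CPM in the luteolysis dogs. Its log2 ratio was 2.79 ± 0.79 (edgeR's adjusted p = 0.0833). CYP17A1, the enzyme that opens the way to androgens and the member with most reads, was higher in both luteal regression dogs than in any luteolysis dog. CYP17A1 was read at 334 CPM in Amy, 264 in Kimba and 111 in Senta, and at 589.7 in Lissy and 857 in Mara. This made a log2 ratio of 1.61 ± 0.64, with an adjusted p of 0.189 by edgeR, so it was not a DEG. Several of these values depended on 1 dog. HSD17B12 was not a DEG without Amy (log2 ratio -1.03, edgeR's adjusted p = 0.103). CYP27B1 was not a DEG without Kimba (log2 ratio -3.05, edgeR's adjusted p = 0.115). SULT1E1 had a log2 ratio of 4.98 without Kimba.

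Among 8 tested genes of cholesterol uptake and synthesis, 1 was higher and 1 was lower, with a median of -0.54. Without Amy 2 were higher and 1 was lower. With all dogs the higher one was VLDLR, a receptor for lipoproteins. VLDLR was read at 7.96 CPM in Amy, 13.9 in Kimba and 9.45 in Senta, and at 33.3 in Lissy and 25.9 in Mara. The groups did not overlap, with Lissy and Mara above the other 3 dogs. EdgeR gave VLDLR a log2 ratio of 1.5 ± 0.34 and an adjusted p of 0.0483. The lower one was CYP51A1, an enzyme of cholesterol synthesis, which stood at 133, 109 and 181 CPM in Amy, Kimba and Senta and at 39.2 and 47.5 CPM in Lissy and Mara. For CYP51A1 edgeR's log2 ratio was -1.70 ± 0.49 and its adjusted p 0.0894. INSIG1, which holds back the sterol-sensing SCAP complex, was at 41.9 and 47.6 CPM in luteal regression and between 194 and 275 CPM in luteolysis, and was not a DEG (log2 ratio -2.45 ± 0.84). SCAP itself had log2 ratio 0.06 ± 0.41.

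Receptors and signalling genes for luteotropic and luteolytic hormones moved in both directions, 5 higher and 5 lower of 22 tested (43 chosen), with a median of -0.02 that was 0.08 with upper-quartile scaling. Without Amy 3 were higher and 8 lower, with a median of 0.09. PTGES makes prostaglandin E2. PTGES was read at 44.2 CPM in Amy, 90.1 in Kimba and 163 in Senta, and at 7.68 in Lissy and 13.1 in Mara. Lissy and Mara were both below all luteolysis dogs. Its log2 ratio came to -3.25 ± 0.60 (SE), with an adjusted p of 0.0404 in edgeR's test. MRAP, the accessory protein that brings the corticotropin receptor to the cell surface, stood at 6.46, 1.62 and 5.22 CPM in Amy, Kimba and Senta and at 0.0978 and 0.359 CPM in Lissy and Mara. EdgeR gave MRAP a log2 ratio of -4.24 ± 0.87 and an adjusted p of 0.0463. PDE4D, which breaks down cAMP, was high in Kimba and Senta only. In luteal regression the level of PDE4D was 3.91 CPM in Lissy and 4.46 in Mara, against 4.95 in Amy, 86.2 in Kimba and 87.5 in Senta. Its log2 ratio was -3.83 ± 0.95 (edgeR's adjusted p = 0.06). GLP1R, a receptor that raises cAMP, was the strongest of the higher ones, at 3.13 and 2.98 CPM in luteal regression and at most 0.526 CPM in luteolysis, with log2 ratio 2.88 ± 0.65. The transcription factors GATA4 and GATA6 regulate steroidogenic genes. GATA4 was read at 61.2 CPM in Amy, 88.7 in Kimba and 59.1 in Senta, and at 118 in Lissy and 126 in Mara. GATA4 had a log2 ratio of 0.81 ± 0.24 and an adjusted p of 0.092 in edgeR's test. GATA6 stood at 28.8, 22.0 and 16.6 CPM in Amy, Kimba and Senta and at 32.3 and 50.7 CPM in Lissy and Mara, and its log2 ratio was 0.88 ± 0.26 (edgeR's adjusted p = 0.0898). The relaxin receptor RXFP1 stood at 2.70, 4.86 and 1.51 CPM in Amy, Kimba and Senta and at 17.9 and 10.1 CPM in Lissy and Mara, with log2 ratio 2.19 ± 0.73, and was not a DEG. FSHR, the member with most reads, was at 615 and 609 CPM in luteal regression, inside the luteolysis range of 461 to 836 CPM. Leaving out 1 dog changed the following. PTGES had a log2 ratio of -2.64 without Senta. MRAP had a log2 ratio of -3.59 without Lissy and -5.40 without Mara. GATA4 was not a DEG without Amy (log2 ratio 0.76, edgeR's adjusted p = 0.113). Further genes depended on single dogs as well. GATA6 was not a DEG without Kimba (log2 ratio 0.87, edgeR's adjusted p = 0.118). RXFP1 was a DEG without Kimba (log2 ratio 2.73, edgeR's adjusted p = 0.0933).

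Nuclear hormone receptors had 3 higher and 2 lower DEG of 12 tested, with a median log2 ratio of 0.97. Without Amy 4 were higher and 3 lower, and without Kimba 6 and 2. VDR, the vitamin D receptor, had the largest difference. VDR was read at 15.3 CPM in Amy, 123 in Kimba and 121 in Senta, and at 8.90 in Lissy and 3.85 in Mara. Amy was nearer to luteal regression than to Kimba and Senta. In edgeR's test the log2 ratio of VDR was -3.76 ± 0.82 (adjusted p = 0.0473). ESRRA, an orphan receptor that drives mitochondrial genes, had log2 ratio -1.05 ± 0.26, and the thyroid hormone receptor THRA 0.90 ± 0.23. The estrogen receptor ESR1 had a positive log2 ratio of 1.29 ± 0.43 but was not a DEG. NR3C1, the glucocorticoid receptor, stood at 94.1, 108 and 95.8 CPM in Amy, Kimba and Senta and at 160.2 and 148 CPM in Lissy and Mara, so that the groups did not overlap, and its log2 ratio was 0.63 ± 0.20 (edgeR's adjusted p = 0.102). Single dogs moved some of these values. VDR had a log2 ratio of -4.49 without Lissy. ESR1 was a DEG without Kimba (log2 ratio 1.98, edgeR's adjusted p = 0.0383). NR3C1 was a DEG without Kimba (log2 ratio 0.69, edgeR's adjusted p = 0.099).

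Clock genes that passed the test were all higher in luteal regression. Of 7 tested (20 chosen), 5 were higher and 0 lower, with a median of 1.11, and 4 were called without Amy and 3 without Kimba. PER2 and PER3 are repressors in the core loop of the clock. PER2 was read at 9.83 CPM in Amy, 12.7 in Kimba and 7.19 in Senta, and at 42.1 in Lissy and 63.2 in Mara. Both luteal regression dogs were above every luteolysis dog. This made a log2 ratio of 2.41 ± 0.41, with an adjusted p of 0.0367 by edgeR. PER3 stood at 25.0, 65.8 and 41.5 CPM in Amy, Kimba and Senta and at 149 and 136 CPM in Lissy and Mara. EdgeR gave PER3 a log2 ratio of 1.69 ± 0.47 and an adjusted p of 0.0818. NR1D2, a nuclear receptor of the second clock loop and the member with most reads, stood at 97.2, 128 and 116 CPM in Amy, Kimba and Senta and at 239.5 and 253 CPM in Lissy and Mara. For NR1D2 edgeR's log2 ratio was 1.11 ± 0.28 and its adjusted p 0.0655. TEF, a clock-controlled transcription factor, had log2 ratio 1.26 ± 0.34. The hour of day at which each dog was operated on was not analysed here. Genes known to answer to glucocorticoids had 4 higher and 0 lower of 7 tested, with a median of 1.30, and 4 higher and 2 lower without Amy. They share PER2 with the clock list. ZBTB16, a transcriptional repressor, stood at 1.28, 1.11 and 0.812 CPM in Amy, Kimba and Senta and at 5.23 and 10.1 CPM in Lissy and Mara. EdgeR gave ZBTB16 a log2 ratio of 2.84 ± 0.48 and an adjusted p of 0.0367. KLF15, a transcription factor of metabolic genes, had log2 ratio 1.16 ± 0.30. ERRFI1, an inhibitor of EGF receptor signalling and the member with most reads, was not a DEG and ran from 39.4 CPM in Mara to 457 CPM in Senta. Some of these results changed with a single dog left out. PER3 was not a DEG without Amy (log2 ratio 1.44, edgeR's adjusted p = 0.106). TEF was not a DEG without Kimba (log2 ratio 1.22, edgeR's adjusted p = 0.102). ERRFI1 was a DEG without Amy (log2 ratio -1.99, edgeR's adjusted p = 0.0654).

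Matrix proteins were higher in luteal regression where they passed the test. Of 33 tested (80 chosen), 11 were higher and 0 lower, and 28 had a positive log2 ratio, with a median of 1.20. CRISPLD2 is a secreted protein of connective tissue. CRISPLD2 was read at 126 CPM in Amy, 287 in Kimba and 188 in Senta, and at 572 in Lissy and 896 in Mara. The groups did not overlap, with Lissy and Mara above the other 3 dogs. Its log2 ratio came to 1.87 ± 0.38 (SE), with an adjusted p of 0.0463 in edgeR's test. LTBP4, which stores latent TGF-beta and helps to build elastic fibres, stood at 29.7, 100.3 and 28.8 CPM in Amy, Kimba and Senta and at 248 and 340.4 CPM in Lissy and Mara. EdgeR gave LTBP4 a log2 ratio of 2.47 ± 0.63 and an adjusted p of 0.0653. COL8A2, a short-chain collagen, stood at 3.81 and 3.80 CPM in luteal regression and at most 0.909 CPM in luteolysis. SPOCK2, a matrix proteoglycan, and MXRA8, a membrane protein, had log2 ratios of 1.41 ± 0.31 and 1.70 ± 0.40. COL1A2, a chain of collagen I and the member with most reads, was not a DEG. COL1A2 had 3411 CPM in Lissy and 4207 in Mara, against 1410 in Amy, 2389 in Kimba and 1147 in Senta. Its log2 ratio was 1.21 ± 0.51 (edgeR's adjusted p = 0.214). ECM2, a matrix protein of the female reproductive organs and fat, stood at 51.4, 76.8 and 33.6 CPM in Amy, Kimba and Senta and at 142 and 122 CPM in Lissy and Mara, with log2 ratio 1.29 ± 0.43, and was not a DEG. Without Amy 12 matrix genes were called, 10 higher and 2 lower. The summed level was 4305 CPM in Amy, 9113 in Kimba and 5169 in Senta against 10320 in Lissy and 12170 in Mara. Several of these values depended on 1 dog. LTBP4 had a log2 ratio of 3.33 without Kimba. COL8A2 had a log2 ratio of 3.48 without Kimba. ECM2 was a DEG without Kimba (log2 ratio 1.63, edgeR's adjusted p = 0.0771).

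Proteases of the matrix and their inhibitors were called in both directions, at shares near those of all tested genes with a name (16.1% lower and 7.18% higher), with 5 lower and 2 higher of 23 tested and a median of -1.33. TIMP1 inhibits matrix metalloproteinases. TIMP1 was read at 815 CPM in Amy, 1550 in Kimba and 1798 in Senta, and at 194 in Lissy and 136 in Mara. Lissy and Mara were both below all luteolysis dogs. TIMP1 had a log2 ratio of -3.07 ± 0.63 and an adjusted p of 0.0463 in edgeR's test. SERPINA1, an inhibitor of neutrophil elastase, stood at 30.9, 119.7 and 81.5 CPM in Amy, Kimba and Senta and at 5.67 and 3.39 CPM in Lissy and Mara. EdgeR gave SERPINA1 a log2 ratio of -4.09 ± 0.87 and an adjusted p of 0.0473. PLAUR, the urokinase receptor, had log2 ratio -3.00 ± 0.67. ADAMTS5, a protease of matrix proteoglycans, was high in Kimba and Senta only. In luteal regression the level of ADAMTS5 was 9 CPM in Lissy and 4.46 in Mara, against 4.20 in Amy, 297 in Kimba and 213 in Senta. Amy was below both luteal regression dogs. The log2 ratio of ADAMTS5 was -4.67 with all dogs and -5.21 without Amy (edgeR's adjusted p = 0.0719 and 0.00159). Without Amy 13 members were lower and 1 was higher. TIMP3, another metalloproteinase inhibitor and the member with most reads, ranged from 432 CPM in Amy to 3690 CPM in Kimba and was not a DEG. Leaving out 1 dog changed the following. ADAMTS5 had a log2 ratio of -4.02 without Kimba and -5.27 without Lissy. TIMP3 was a DEG without Amy (log2 ratio -1.78, edgeR's adjusted p = 0.0262).

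In WNT and hedgehog signalling 4 of 22 tested genes were higher and 1 was lower, with a median of 0.69. The WNT receptor parts LGR4 and LRP5 had log2 ratios of 0.85 ± 0.22 and 1.06 ± 0.30, and SMO and KIF7 of the hedgehog pathway 0.70 ± 0.18 and 1.28 ± 0.30. SMO stood at 78.3, 68.4 and 51.1 CPM in Amy, Kimba and Senta and at 107 and 107 CPM in Lissy and Mara. In edgeR's test the log2 ratio of SMO was 0.70 ± 0.18 (adjusted p = 0.0718). CTNNB1, the effector of WNT signalling and the member with most reads, was not a DEG (-0.78 ± 0.26). Without Amy 5 genes of this list were higher and 5 lower, and without Kimba 7 and 0. In TGF-beta, BMP and activin signalling 1 of 15 was higher, the LTBP4 already given, and 0 were lower, with a median of -0.21. The receptor TGFBR2 had log2 ratio -0.74 ± 0.24 and the ligand TGFB1 -0.92 ± 0.34, neither a DEG. Without Amy 9 were called, 6 of them lower. Single dogs moved some of these values. LRP5 was not a DEG without Kimba (log2 ratio 0.99, edgeR's adjusted p = 0.126). CTNNB1 was a DEG without Amy (log2 ratio -0.92, edgeR's adjusted p = 0.0449). TGFBR2 was a DEG without Amy (log2 ratio -0.82, edgeR's adjusted p = 0.0563). Other calls or ratios did so too. TGFB1 was a DEG without Amy (log2 ratio -1.07, edgeR's adjusted p = 0.0713).

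Chemokines and their receptors had the most negative median of all pathway lists, -2.68, with 9 lower and 0 higher of 23 tested. Of the lower ones, some were high in all luteolysis dogs and others in Kimba and Senta only, while 4 members had positive log2 ratios and were not DEG. ACKR1, an atypical receptor on venules that binds many chemokines, and CCL14 belonged to the first kind. ACKR1 was read at 39.8 CPM in Amy, 71.2 in Kimba and 123 in Senta, and at 12.9 in Lissy and 5.90 in Mara. This made a log2 ratio of -3.05 ± 0.60, with an adjusted p of 0.0451 by edgeR. CCL14 stood at 23.6, 15.5 and 32.4 CPM in Amy, Kimba and Senta and at 3.23 and 3.54 CPM in Lissy and Mara. EdgeR gave CCL14 a log2 ratio of -2.81 ± 0.64 and an adjusted p of 0.0487. CCL2, which draws monocytes, belonged to the second kind. CCL2 had 49.3 CPM in Lissy and 7.85 in Mara, against 35.1 in Amy, 593 in Kimba and 819 in Senta. The log2 ratio of CCL2 was -4.08 with all dogs and -4.60 without Amy (edgeR's adjusted p = 0.0858 and 0.00831). CCL3 stood at 0.0751, 127 and 183 CPM in Amy, Kimba and Senta and at 0.880 and 0 CPM in Lissy and Mara, and its log2 ratio was -7.83 with all dogs and -8.39 without Amy. CCL13 had no read in either luteal regression dog and 0.0751 CPM in Amy, against 19.5 in Kimba and 27.5 in Senta. Taking 3 reads over the group as the limit that a count of 0 allows, its summed level was at least 231-fold lower in luteal regression, and the fitted log2 ratio of -11.17 depends on the prior count. The median of the list is the same with CCL13 at this bound. Chemokine genes lie in families of near copies, so how their reads were shared among them is uncertain. CXCL8, which draws neutrophils, was not a DEG although the groups did not overlap. CXCL8 was read at 86.0 CPM in Amy, 311 in Kimba and 282 in Senta, and at 10.1 in Lissy and 4.72 in Mara. Its log2 ratio was -4.93 ± 1.64 (edgeR's adjusted p = 0.128). The summed level of the 23 members was 392 CPM in Amy, 1592 in Kimba and 1938 in Senta against 245 in Lissy and 263 in Mara, and without Amy 15 members were lower and 1 was higher. Without Kimba 8 were lower and 1 was higher. Some of these results changed with a single dog left out. ACKR1 had a log2 ratio of -3.73 without Lissy. CCL2 had a log2 ratio of -3.41 without Senta, -5.94 without Lissy and -3.29 without Mara. CCL3 had a log2 ratio of -7.09 without Senta and -6.87 without Mara, and no read of it is left in luteal regression without Lissy. Further genes depended on single dogs as well. CXCL8 was a DEG without Amy (log2 ratio -5.29, edgeR's adjusted p = 0.0775) and had a log2 ratio of -5.58 without Lissy.

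Cytokines and their receptors had 7 lower and 0 higher of 28 tested, with a median of -2.11. TNFRSF12A, the TWEAK receptor, had the smallest p. TNFRSF12A was read at 11.7 CPM in Amy, 88.2 in Kimba and 147 in Senta, and at 6.75 in Lissy and 2.31 in Mara. For TNFRSF12A edgeR's log2 ratio was -4.18 ± 0.93 and its adjusted p 0.0473. OSMR, the oncostatin M receptor and the member with most reads, stood at 109, 378 and 376 CPM in Amy, Kimba and Senta and at 85.0 and 64.5 CPM in Lissy and Mara. CSF2RA, a chain of the GM-CSF receptor, and IL10RA had log2 ratios of -3.30 ± 0.76 and -1.30 ± 0.36. IL1B was not read in Amy, was at 7.27 CPM in Kimba and 18.8 in Senta, and at 0.489 and 0.103 CPM in luteal regression, and was not a DEG. Without Amy 20 members were lower, and without Kimba 3. In the NF-kB pathway 5 of 20 were lower and 0 higher, with a median of -1.18, and 14 were lower without Amy. SOD2, the mitochondrial superoxide dismutase and the member with most reads, stood at 836, 1491 and 1796 CPM in Amy, Kimba and Senta and at 358 and 305 CPM in Lissy and Mara. EdgeR gave SOD2 a log2 ratio of -2.05 ± 0.37 and an adjusted p of 0.0393. The inhibitors CYLD and TNIP3 had log2 ratios of -1.92 ± 0.45 and -2.83 ± 0.71, and the subunit RELB -0.90 ± 0.25. Several of these values depended on 1 dog. TNFRSF12A had a log2 ratio of -3.42 without Senta and -5.16 without Lissy. OSMR was not a DEG without Kimba (log2 ratio -1.70, edgeR's adjusted p = 0.109). IL1B was a DEG without Amy (log2 ratio -5.40, edgeR's adjusted p = 0.0146). Other calls or ratios did so too. TNIP3 had a log2 ratio of -3.79 without Lissy.

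Acute-phase and complement genes had 9 lower and 0 higher of 19 tested, with a median of -1.87. CD55 and CD59 protect cells from complement. CD55 was read at 189.5 CPM in Amy, 2290 in Kimba and 2300 in Senta, and at 90.4 in Lissy and 59.1 in Mara. Amy was thus nearer to the luteal regression dogs than to Kimba and Senta. Its log2 ratio came to -4.41 ± 1.01 (SE), with an adjusted p of 0.0489 in edgeR's test. CD59 stood at 574, 939 and 1137 CPM in Amy, Kimba and Senta and at 234 and 248 CPM in Lissy and Mara, and its log2 ratio was -1.87 ± 0.36 (edgeR's adjusted p = 0.0451). AFP, a fetal serum protein, stood at 7.66, 35.0 and 2.44 CPM in Amy, Kimba and Senta and at 0.342 and 0.154 CPM in Lissy and Mara, and FGL1, a fibrinogen-like protein, had log2 ratio -2.27 ± 0.47. C5AR2, a receptor for complement C5a, stood at 23.9, 156 and 134 CPM in Amy, Kimba and Senta and at 23.0 and 16.4 CPM in Lissy and Mara, where Amy and Lissy were nearly equal. Without Amy 13 were lower. Leaving out 1 dog changed the following. AFP had a log2 ratio of -4.30 without Kimba and -6.55 without Lissy. C5AR2 was not a DEG without Kimba (log2 ratio -2, edgeR's adjusted p = 0.104).

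Some MHC class II genes, which present antigen to T cells, were lower in luteal regression, and here Amy was not the low luteolysis dog. DLA-DRB1, the member with most reads, stood at 4572, 1630 and 3592 CPM in Amy, Kimba and Senta and at 724 and 908 CPM in Lissy and Mara. DLA-DRB1 had a log2 ratio of -2 ± 0.48 and an adjusted p of 0.0546 in edgeR's test. DLA-DRA1 stood at 2754, 788 and 2126 CPM in Amy, Kimba and Senta and at 423 and 519.8 CPM in Lissy and Mara. DLA-DQA stood at 1951, 893 and 2044 CPM in Amy, Kimba and Senta and at 371 and 379 CPM in Lissy and Mara. In all 3 genes Kimba was the lowest luteolysis dog, and the groups did not overlap. The log2 ratio was -2 ± 0.51 for DLA-DRA1 and -2.12 ± 0.57 for DLA-DQA. Since class II genes differ between dogs and have near copies, their counts are uncertain. These 3 were the lower ones of 10 tested members, 0 were higher, and the median was -1.42. Without Amy 5 were lower and 1 was higher, and without Kimba 5 were lower. Interferon-stimulated genes went in the opposite direction, with 6 higher and 0 lower of 20 tested, all 20 log2 ratios positive and a median of 1.35. IFI44L stood at 12.7, 17.6 and 18.1 CPM in Amy, Kimba and Senta and at 41.0 and 75.8 CPM in Lissy and Mara. EdgeR gave IFI44L a log2 ratio of 1.85 ± 0.37 and an adjusted p of 0.0451. MX1, an antiviral GTPase, stood at 10.9, 19.7 and 14.3 CPM in Amy, Kimba and Senta and at 43.4 and 130.2 CPM in Lissy and Mara. Mara was about 3-fold above Lissy for this gene, and Lissy lay within and Mara above the mid-gestation range of 23.8 to 111 CPM. IFIT2 and DHX58 had log2 ratios of 1.90 ± 0.43 and 1.04 ± 0.26, and TRIM25, the member with most reads, 1.03 ± 0.32 (not a DEG). Without Amy 9 were higher. Single dogs moved some of these values. MX1 had a log2 ratio of 3.12 without Lissy and 1.53 without Mara. TRIM25 was a DEG without Amy (log2 ratio 1.30, edgeR's adjusted p = 0.0318).

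Genes of oxidative and unfolded-protein stress had 6 lower and 0 higher of 12, with a median of -0.98. Besides SOD2 they were led by TXN, which encodes thioredoxin, and TKT, an enzyme of the pentose phosphate pathway. TXN stood at 21.3, 21.9 and 41.3 CPM in Amy, Kimba and Senta and at 9.29 and 9.39 CPM in Lissy and Mara. TKT stood at 308, 685 and 850.4 CPM in Amy, Kimba and Senta and at 189 and 206 CPM in Lissy and Mara. EdgeR gave TKT a log2 ratio of -1.64 ± 0.33 and an adjusted p of 0.0451. TRIB3, induced in stressed cells, had log2 ratio -2.43 ± 0.59. In glycolysis and hypoxia 5 of 11 were lower and 0 higher, with a median of -1.24. The glucose transporter SLC2A1 stood at 44.3, 149.9 and 153 CPM in Amy, Kimba and Senta and at 35.5 and 32.3 CPM in Lissy and Mara. In edgeR's test the log2 ratio of SLC2A1 was -1.77 ± 0.38 (adjusted p = 0.0473). The carbonic anhydrase CA12 and the hypoxia-induced NDRG1 had log2 ratios of -2.84 ± 0.61 and -1.16 ± 0.33. PFKFB3, a regulator of glycolysis, was at 38.1 CPM in Amy, below both luteal regression dogs, and at 277 and 345 CPM in Kimba and Senta. TPI1, a glycolytic enzyme and the member with most reads, was not a DEG (-1.24 ± 0.38). Without Amy the count was 7 lower for stress, and 7 lower and 2 higher for glycolysis. Some of these results changed with a single dog left out. NDRG1 was not a DEG without Kimba (log2 ratio -1.07, edgeR's adjusted p = 0.113). TPI1 was a DEG without Kimba (log2 ratio -1.51, edgeR's adjusted p = 0.053).

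Apoptosis genes gave 1 higher and 1 lower of 9 tested, with a median of -1.13. The lower one was CYCS, which encodes cytochrome c and also serves respiration, and the higher one BMF, a promoter of apoptosis. CYCS was read at 153 CPM in Amy, 119 in Kimba and 187 in Senta, and at 54.1 in Lissy and 67.2 in Mara. In luteal regression the level of BMF was 19.8 CPM in Lissy and 17.8 in Mara, against 8.33 in Amy, 10.2 in Kimba and 6.32 in Senta. The groups were apart in both genes. Their log2 ratios were -1.33 ± 0.29 and 1.18 ± 0.32. The survival gene MCL1, which had most reads, overlapped between the groups (-0.97 ± 0.36), and without Amy 6 apoptosis genes were lower and 1 was higher. Of 20 tested cell cycle genes 3 were lower and 0 higher, with a median of -0.06 (0.04 with upper-quartile scaling). CCND3, a G1 cyclin, stood at 66.2, 73.5 and 54.4 CPM in Amy, Kimba and Senta and at 14.8 and 17.9 CPM in Lissy and Mara. This made a log2 ratio of -1.98 ± 0.36, with an adjusted p of 0.0393 by edgeR. RRM2, which supplies deoxynucleotides, was within the luteal regression range in Amy at 4.13 CPM, and at 50.9 and 64.8 CPM in Kimba and Senta. E2F3, a transcription factor of the G1 to S step, had log2 ratio -0.86 ± 0.19. Without Amy 3 cell cycle genes were lower and 1 was higher. Ribosome biogenesis and tRNA charging had 2 lower of 19, the tRNA methylase METTL1 (-1.65 ± 0.36) and the tryptophan-tRNA ligase WARS (-1.59 ± 0.32), and 0 higher, with a median of -0.46. The nucleolar NCL, with most reads, was at -0.06 ± 0.24. Without Amy 4 were lower. Several of these values depended on 1 dog. MCL1 was a DEG without Amy (log2 ratio -1.25, edgeR's adjusted p = 0.0213). RRM2 had a log2 ratio of -2.69 without Senta.

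**Figure D4:**
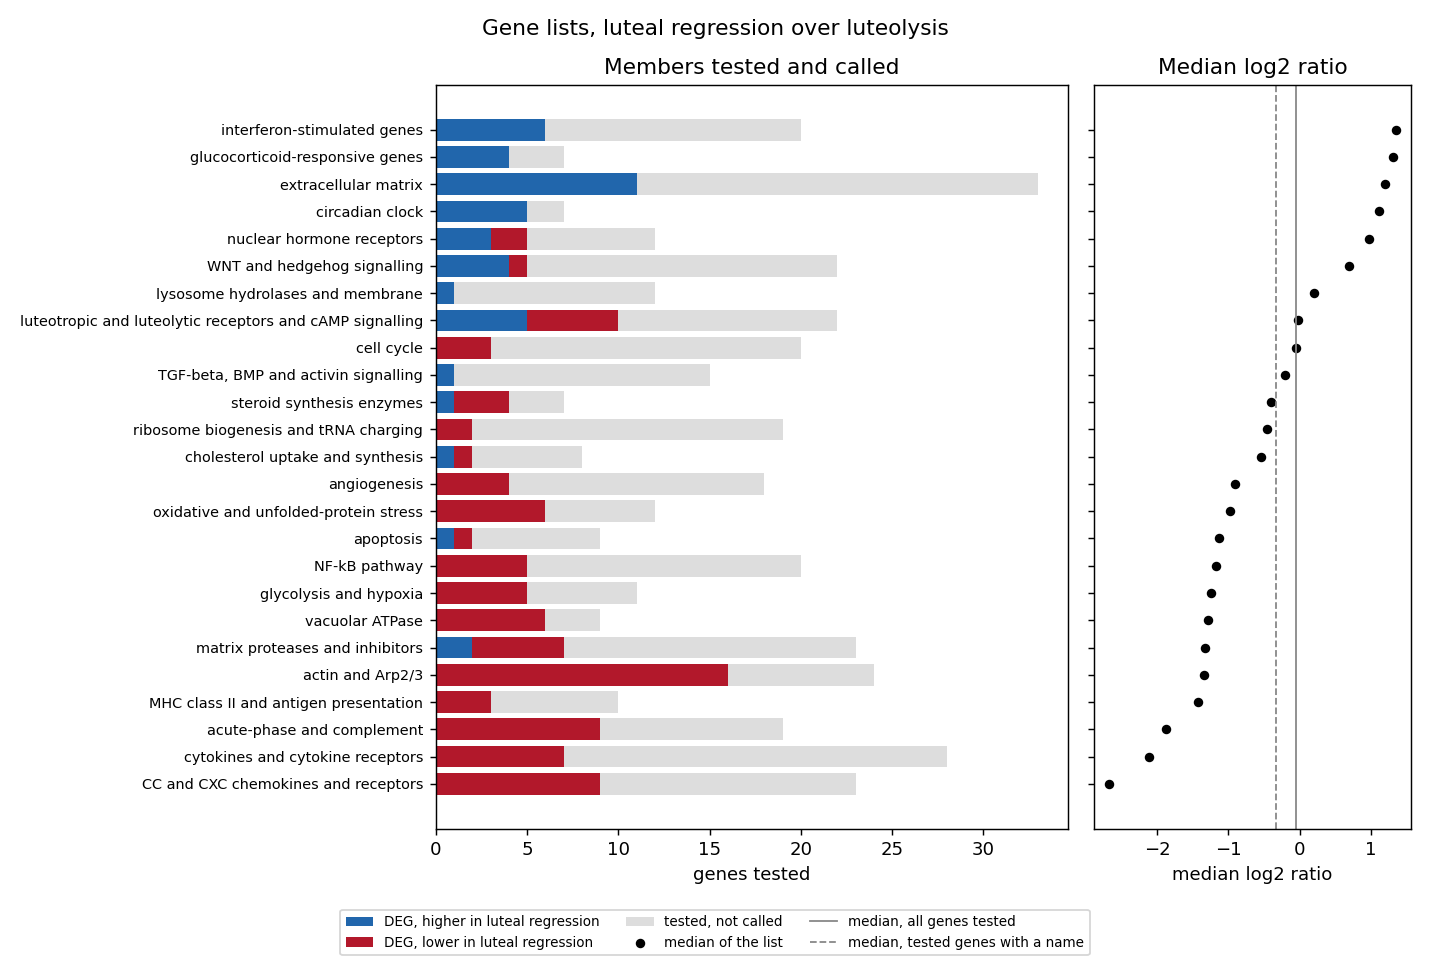
Left, members tested in each of 25 gene lists, split into DEG higher (blue) and lower (red) in luteal regression and genes not called (grey); right, the median log2 ratio of each list, with the medians of all genes tested (-0.05) and of tested genes with a name (-0.34) as lines. With all dogs in the fit, interferon-stimulated genes lie highest, at 1.35, and chemokines lowest, at -2.68. Without Mara the median of interferon-stimulated genes was 0.87, below that of glucocorticoid-responsive genes at 1.64.

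Angiogenesis genes had 4 lower and 0 higher of 18 tested, with a median of -0.91, and 8 lower without Amy. Without Kimba 3 were lower and 2 higher. NOS3, the endothelial nitric oxide synthase, stood at 33.1, 97.1 and 109.7 CPM in Amy, Kimba and Senta and at 21.7 and 13.1 CPM in Lissy and Mara. For NOS3 edgeR's log2 ratio was -2.20 ± 0.54 and its adjusted p 0.0592. The growth factors VEGFC and PDGFA had log2 ratios of -1.98 ± 0.51 and -1.31 ± 0.37. THBS1, an inhibitor of vessel growth and the member with most reads, was at 31.5 CPM in Amy and 1412 and 1382 in Kimba and Senta, with 339.6 in Lissy and 176 in Mara in between, and was not a DEG. Leaving out 1 dog changed the following. PDGFA was not a DEG without Kimba (log2 ratio -1.17, edgeR's adjusted p = 0.119). THBS1 was a DEG without Amy (log2 ratio -2.41, edgeR's adjusted p = 0.0722).

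Markers of cell types differed between the groups too. In bulk tissue, fewer cells of a type and less RNA per cell cannot be told apart. Endothelial markers were lower for 4 of 11 tested (20 chosen), 0 were higher, and all 11 log2 ratios were negative, with a median of -1.33. The drop was not shared by all members. PLVAP, SOX18 and ROBO4 had log2 ratios of only -0.40, -0.17 and -0.14, and their groups overlapped. ROBO4 was at 10.5 CPM in Amy, below Lissy at 35.3 and Mara at 33.1. PECAM1, an adhesion molecule between endothelial cells, stood at 114, 282 and 288 CPM in Amy, Kimba and Senta and at 58.2 and 67.9 CPM in Lissy and Mara. Its log2 ratio came to -1.86 ± 0.54 (SE), with an adjusted p of 0.0904 in edgeR's test. TEK, the angiopoietin receptor, stood at 93.2, 136 and 165 CPM in Amy, Kimba and Senta and at 52.7 and 51.3 CPM in Lissy and Mara, and VWF, the member with most reads, was not a DEG (-1.13 ± 0.42). The 11 markers summed to 639.9 CPM in Amy, 1298 in Kimba and 1243 in Senta against 397 in Lissy and 426 in Mara. Amy was again between the groups. Macrophage and monocyte markers were lower for 4 of 9 (21 chosen), with a median of -1.47. LYZ, which encodes lysozyme and had most reads, stood at 54.6, 288 and 414 CPM in Amy, Kimba and Senta and at 31.4 and 27.3 CPM in Lissy and Mara. EdgeR gave LYZ a log2 ratio of -3.10 ± 0.62 and an adjusted p of 0.0451. MRC1, the mannose receptor, stood at 98.9, 207 and 121 CPM in Amy, Kimba and Senta and at 49.4 and 53.0 CPM in Lissy and Mara. The 9 markers summed to 504 CPM in Amy, 724 in Kimba and 827 in Senta against 205 in Lissy and 245 in Mara, so the groups did not overlap. Without Amy 7 endothelial and 7 macrophage markers were lower, and without Kimba 3 and 1. Single dogs moved some of these values. PECAM1 was not a DEG without Kimba (log2 ratio -1.68, edgeR's adjusted p = 0.121). VWF was a DEG without Amy (log2 ratio -1.37, edgeR's adjusted p = 0.049). LYZ had a log2 ratio of -2.50 without Senta. Other calls or ratios did so too. MRC1 was not a DEG without Kimba (log2 ratio -1.11, edgeR's adjusted p = 0.141).

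The summed markers of T and NK cells, neutrophils, platelets and smooth muscle were high in Kimba and Senta, with Amy near the level of luteal regression. These sums are carried by a few members with many reads, and other members of the same lists do not share the pattern. Of 7 tested T and NK cell markers (20 chosen) 2 were lower, and these were GZMB, a protease of cytotoxic cells, and CCR7, a homing receptor and the member with most reads. GZMB was read at 0.676 CPM in Amy, 206 in Kimba and 109.6 in Senta, and at 2.54 in Lissy and 0.565 in Mara. CCR7 had 3.47 CPM in Lissy and 0.667 in Mara, against 0.676 in Amy, 207 in Kimba and 198 in Senta. Both genes overlap between the groups through Amy. The log2 ratio of GZMB was -6.07 with all dogs and -6.62 without Amy (edgeR's adjusted p = 0.0559 and 0.000271). The 5 other T and NK cell markers tested had positive log2 ratios and were not DEG, and the median of the list was 0.52. CD2 stood at 4.20, 1.94 and 2.26 CPM in Amy, Kimba and Senta and at 6.06 and 4.72 CPM in Lissy and Mara and was not a DEG. Without Kimba 1 member of the list was lower. The list summed to 9.01 CPM in Amy, 418 in Kimba and 311 in Senta against 16.7 in Lissy and 9.85 in Mara. The 4 of 16 neutrophil markers summed to 12.4 CPM in Amy, 96.2 in Kimba and 49.3 in Senta against 10.0 in Lissy and 5.85 in Mara, with most reads in CSF3R. LTF, which encodes lactoferrin, was among the exceptions, as it stood at 4.35, 4.07 and 3.36 CPM in Amy, Kimba and Senta and at 2.40 and 3.70 CPM in Lissy and Mara. With all dogs 1 neutrophil marker was lower, without Amy 3 and without Kimba 0. CSF3R had a log2 ratio of -3.91 ± 1.26 with all dogs and was not a DEG. The 4 of 15 platelet and red cell markers summed to 72.4 CPM in Amy, 557 in Kimba and 436 in Senta against 62.6 in Lissy and 56.7 in Mara. Here 2 were lower, SELP (-2.18 ± 0.46), which is also made by endothelium, and the integrin chain GPIIIA (-3.24 ± 0.75), which had most reads and was at 25.0 CPM in Amy and 469 CPM in Kimba. The platelet chemokine PPBP was highest in Amy, at 0.901 CPM, and the hemoglobin gene HBA was at most 38.7 CPM, in Senta. Some of these results changed with a single dog left out. GZMB had a log2 ratio of -5.14 without Kimba, -7.53 without Lissy and -5.37 without Mara. CCR7 was not a DEG without Kimba (log2 ratio -5.58, edgeR's adjusted p = 0.11). CCR7 had a log2 ratio of -7.65 without Lissy and -5.28 without Mara. Further genes depended on single dogs as well. GPIIIA had a log2 ratio of -2.44 without Kimba. CSF3R was a DEG without Amy (log2 ratio -4.43, edgeR's adjusted p = 0.0201). CSF3R had a log2 ratio of -2.26 without Kimba, -5.31 without Lissy and -3.23 without Mara.

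The 3 of 15 pericyte and smooth muscle markers summed to 282 CPM in Amy, 1559 in Kimba and 1618 in Senta against 241 in Lissy and 261 in Mara, with 1 lower, SMTN (-2.41 ± 0.70), and most reads in TAGLN, at 60.3 CPM in Amy and 1006 in Kimba. MCAM, an adhesion molecule, was not low in Amy, as it stood at 171, 162 and 231 CPM in Amy, Kimba and Senta and at 61.5 and 87.9 CPM in Lissy and Mara. Without Amy 2 of these markers were lower, and without Kimba 0. Fibroblast markers summed to 2640 CPM in Amy, 4898 in Kimba and 2280 in Senta against 5519 in Lissy and 7161 in Mara, which did not overlap, with most reads in COL1A2. Of 8 tested (15 chosen) 1 was lower, FAP (-1.63 ± 0.44), a protease of activated fibroblasts, and 0 were higher, while the median was 0.79. Without Amy 2 fibroblast markers were lower, and without Kimba 1 was higher and 0 lower. PDGFRA, a receptor on fibroblasts, stood at 41.6, 109.8 and 68.6 CPM in Amy, Kimba and Senta and at 197 and 183 CPM in Lissy and Mara, and its log2 ratio was 1.37 ± 0.44 (edgeR's adjusted p = 0.118). The 2 of 12 B and plasma cell markers, led by IRF4, summed to at most 8.22 CPM, in Kimba, and CMA1, the 1 of 7 mast cell markers, to at most 17.6 CPM, also in Kimba. POU2AF1 of the B cell list had no read in Amy or Mara. Neither list held a DEG. The 3 of 12 adipocyte markers, led by LPL, summed to between 24.4 and 44.0 CPM and overlapped, with 1 lower, CIDEC (-2.59 ± 0.54), a lipid droplet protein. Markers of follicle and ovary, 3 of 14 and led by FSHR, held 0 DEG with all dogs, and without Amy 1 higher and 1 lower. INSL3, a hormone of theca and luteal cells among them, stood at 230.1, 87.9 and 53.8 CPM in Amy, Kimba and Senta and at 454 and 479 CPM in Lissy and Mara, all below the lowest mid-gestation dog, at 789 CPM, and was not a DEG. Of the luteal cell markers, CYP17A1 is given above, and PRLR, the prolactin receptor, stood at 74.8, 82.9 and 95.2 CPM in Amy, Kimba and Senta and at 104 and 65.8 CPM in Lissy and Mara, with 0 DEG among the 2. The part of cell makeup in the differences between the groups was not tested. Several of these values depended on 1 dog. SMTN was not a DEG without Kimba (log2 ratio -2.10, edgeR's adjusted p = 0.122). TAGLN was a DEG without Amy (log2 ratio -2.98, edgeR's adjusted p = 0.0334). FAP was not a DEG without Kimba (log2 ratio -1.37, edgeR's adjusted p = 0.107). Other calls or ratios did so too. PDGFRA was a DEG without Kimba (log2 ratio 1.79, edgeR's adjusted p = 0.0658). INSL3 was a DEG without Amy (log2 ratio 2.75, edgeR's adjusted p = 0.0601).

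**Figure D5:**
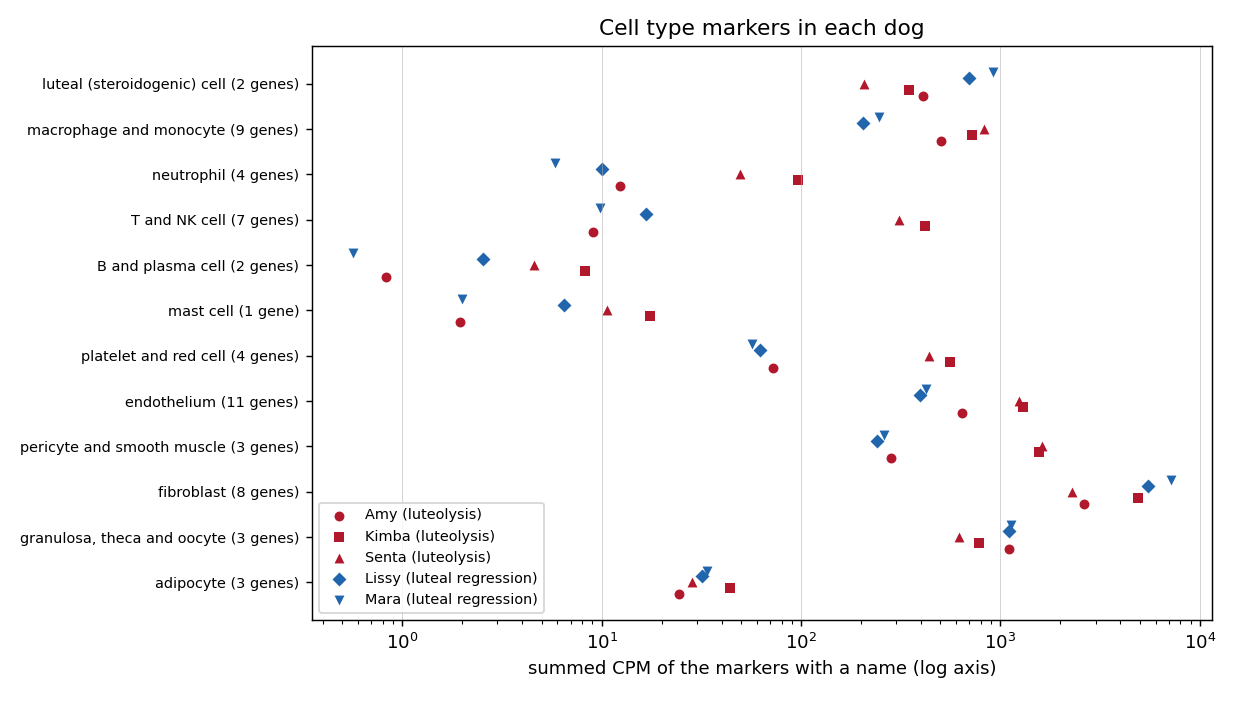
Summed CPM (log axis) of the markers with a name of 12 cell types in the 3 luteolysis dogs (red) and the 2 luteal regression dogs (blue). The sums of endothelial and macrophage markers are higher in all luteolysis dogs, whereas those of T and NK cell, neutrophil, platelet and smooth muscle markers are high in Kimba and Senta, carried by a few members of each list.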

How the data were processed

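CL RNA of 15 dogs was measured by RNA-Seq, 1 library per dog. Alignment by the authors used STAR and the dog genome, their read counting per gene used featureCounts, and the deposited table holds these raw counts, with values of at least 10000 given to 4 significant digits. In edgeR 4.0.16, counts were scaled by TMM and fitted with the group as the only factor in all 15 dogs, keeping genes whose count averaged 10 or more in any group. Luteal regression over luteolysis was tested by the quasi-likelihood F-test in the 14768 genes that reach this average in either of these groups, adjusted by Benjamini-Hochberg, and a DEG has p below 0.01 and adjusted p below 0.1. CPM use the TMM-scaled library sizes. The code was tested on simulated data. Members, the 25 gene lists and the 12 cell type lists were chosen with earlier results of these data known. Genes named are, per direction, the 10 DEG of smallest p and the 5 of largest log2 ratio (at least 10 CPM) that have a name and do not overlap, genes that the study's text names for this contrast, and in each list the 4 of smallest p and the member with most reads, except for items that are not reported here. Alternatives tried were DESeq2 1.42.0 size factors and Wald test, upper-quartile scaling, and no filter or a mean count of at least 50. Also tried were limma 3.58.1 (voom with quality weights), robust edgeR, only the 5 dogs, an adjusted p below 0.05, and each dog left out.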

Additional observations from a re-analysis of the deposited data

Results flagged for a closer look

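In the 5 mid-gestation dogs and the 5 antigestagen dogs, 94 groups of values of 47 named genes were examined for a dog far from the other 4, by Dixon's test. Such a dog was found in 10 of them, where chance flags about 1 in 20 groups if the values are normally distributed. The test used CPM without a log scale, and their distribution was not tested. The 10 are therefore not shown to exceed chance. None of these dogs belongs to luteolysis or luteal regression, whose groups of 3 and 2 dogs were not examined in this way. In mid-gestation, Nescafe had 42.1 CPM of PER2 against 21.6 in the next dog. The title and the description of this dog's record give different group numbers, so its place in mid-gestation rests on its condition label. Kurtulus had 333 CPM of ENPP6 against 193 in the next dog. Gold stood alone for CYP2C21 (72.7 CPM against 6.89) and for CXCL8 (177 against 28.1). After antigestagen, Birnur had 195 CPM of SNX10 against 146 in the next dog, Suzan 10.7 CPM of FIGNL1 against 7.71, and Zeynep 91 CPM of MX1 against 38.9. Seran was apart in 3 genes, with 56.1 CPM of FAM167B against 25.7, 4.55 CPM of SERPINB10 against 1.31, and the lowest GATA4, at 66.6 CPM against 100. No explanation of these values was tested.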

How the results depend on the processing

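The lower genes outnumbered the higher ones in each alternative that called more than 1 gene, and none of the 754 DEG turned its direction under any of them. As the DEG were selected for their difference in these same dogs, a turn was unlikely from the start. Within 1.5 times the reported counts of 754, 225 higher and 529 lower stayed those with DESeq2 size factors (718, 244 and 474), upper-quartile scaling (678, 291 and 387), a mean count of at least 50 (814, 261 and 553) and robust edgeR (768, 230 and 538), and the same genes made up 696, 612, 739 and 754 of them. Without a filter 131 genes were higher, where more genes were tested. DESeq2's Wald test gave 1567 DEG (528 higher, 1039 lower) and limma-voom 3646 (1487 and 2159), and the cause was not tested. An adjusted p below 0.05, which is stricter, gave 197 (51 and 146). With only the 5 dogs in the fit edgeR gave 0 (0 higher, 0 lower), the smallest adjusted p was 0.225, and 2360 genes had an unadjusted p below 0.05. Leaving out 1 dog gave 0 to 1593 DEG, 0 to 548 higher and 0 to 1045 lower. With 1 dog left in luteal regression, the lone dog is assumed to vary like the other groups. No paired analysis was possible because each dog gave 1 library.

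Among named genes, those that turned sign were not DEG. NCL was 0.04 with upper-quartile scaling, FSHR 0.05 with upper-quartile scaling and 0.23 with limma-voom, and with limma-voom -0.13 was the log2 ratio PRLR had. With 1 dog left out, FSHR ranged from -0.19 to 0.23, PRLR ranged from -0.36 to 0.30, NCL ranged from -0.22 to 0.08, SCAP ranged from -0.21 to 0.73 and HBA ranged from -1.59 to 0.67. The cause was not tested.

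Depth was 15236939 to 23505897 counts in the 5 dogs, so a gene with a mean count near 10 is read at under 1 CPM. With 2 and 3 dogs, a difference that missed the threshold is not shown to be absent. The strand setting of the counting is not stated, so overlapping genes on opposite strands cannot be told apart. Operation date, RNA batch and sequencing run were not analysed here, and day of cycle, pregnancy and P4 course differ together between the groups.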
